A study of Rattus norvegicus with 35 samples.

Results

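The 10 genes described here encode the apolipoproteins Apoa1, Apoa2, Apoa4, Apoa5, Apob, Apoc3, Apoe and Apom and 2 proteins that act on Apob and its particles, the lipid transfer protein Mttp and the RNA-editing cofactor A1cf. They were found by gene symbol in the platform annotation, which gave 12 probe sets among 31042 tested, for 10 of the 14217 genes with a probe set of 1 symbol. Apob and Apoe have 2 probe sets each, and the probe set of highest mean stands for the gene. The RNA came from the liver of individual Wistar Han rats, per the labels, on arrays of the Affymetrix Rat Genome 230 2.0 design. A triazole fungicide was mixed into the feed, with exposure lasting from gestation day 6 until postnatal day 92. Controls (Control, 7 arrays) received 0 ppm. Myclobutanil was given at 500 ppm (M500, 5 arrays) and 2000 ppm (M2000, 4 arrays), propiconazole at 500 ppm (P500, 3 arrays) and 2500 ppm (P2500, 4 arrays), and triadimefon at 500 ppm (T500, 5 arrays) and 1800 ppm (T1800, 4 arrays). These are 32 of the 35 arrays listed. The other 3 (1 of M2000, 2 of P500) carry no values and are marked by the submitters as left out of their final analysis. The labels name no genotype and no transgene. The design text calls the animals biological replicates, and the sources used here do not say whether animals of a group were littermates.

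Lipoproteins carry triglyceride and cholesterol through plasma inside a shell of phospholipid and apolipoproteins. The hepatocyte builds very-low-density lipoprotein around Apob, which Mttp loads with lipid in the endoplasmic reticulum, and it secretes Apoa1 and Apoa2, the main proteins of high-density lipoprotein. Apoa1, Apoc3, Apoa4 and Apoa5 lie side by side in 1 gene cluster. In rodents the liver, besides the intestine, makes Apoa4, and the liver edits Apob mRNA, so that hepatocytes secrete both the long and the short form of the protein.

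Over all arrays, Apoa4 had the smallest p of the 10 members for a difference between groups and Apoa5, which lies in the same cluster, the largest. Their upstream sequences are therefore shown. Each is the 250 bases before the annotated start on the + strand in RefSeq's GRCr8 table, chr8:55435529-55435778 for Apoa4 and chr8:55457621-55457870 for the first of 2 starts of Apoa5. Capitals mark matches, on either strand, to AAAGTCCA (part of the element bound by HNF4), AGGTCA (a nuclear receptor site), CCACGT (a core of elements bound by bZIP factors such as CREB3 and ATF6) and TATAAA (the TATA box).
Apoa4: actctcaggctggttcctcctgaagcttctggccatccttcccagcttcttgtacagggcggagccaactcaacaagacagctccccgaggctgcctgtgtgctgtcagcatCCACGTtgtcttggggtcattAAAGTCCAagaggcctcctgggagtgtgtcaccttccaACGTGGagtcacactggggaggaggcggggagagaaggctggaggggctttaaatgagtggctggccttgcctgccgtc
Apoa5: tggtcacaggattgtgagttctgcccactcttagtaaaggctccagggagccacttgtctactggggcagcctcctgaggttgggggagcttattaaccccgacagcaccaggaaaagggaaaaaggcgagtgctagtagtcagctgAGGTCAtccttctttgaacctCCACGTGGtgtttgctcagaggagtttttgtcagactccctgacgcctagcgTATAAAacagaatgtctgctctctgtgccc
The Apoa4 window holds AAAGTCCA with its first base 117 bases before the start, and CCACGT at 138 bases on the + strand and at 79 bases on the - strand. The Apoa5 window holds AGGTCA at 103 bases, TATAAA at 30 bases and CCACGT at 82 and 80 bases, the last pair overlapping on opposite strands. Of 33360 windows of this length, 1.19% hold AAAGTCCA, 14.1% AGGTCA, 6.72% CCACGT and 12.9% TATAAA. These are matches of letters and were not tested for binding. The table held windows for 5 of the 10 members, the others being Apoe, A1cf and Apom. Apoa1, Apoa2, Apob, Apoc3 and Mttp were not matched.

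Every value below is a deposited score, of unstated scale and log base, and a difference of scores is not read as a fold change. Array medians lay between 0.00528 and 0.0585, but array standard deviations ran from 0.704 to 1.02 and array maxima from 4.76 to 9.01. M500 replicate 1 had the widest spread. RNA integrity was read from the GAPDH and β-actin control probe sets. Their 3′ score less their 5′ score (the 3′–5′ difference) averaged 1.30 ± 0.595 in Control (SD, n = 7), 1.21 ± 0.849 in M500 (n = 5) and 1.49 ± 0.375 in T1800 (n = 4), against 0.518 to 0.694 in the other 4 groups. The GAPDH difference exceeded 0.9 on 9 arrays, Controls 4 to 7, M500 replicates 1 and 5 and T1800 replicates 2 to 4, which are called the high-difference arrays. This class uses GAPDH alone. By the mean of both genes, T1800 replicate 1 (1.17) and Control replicate 2 (1.11), outside the class, were close to T1800 replicate 3 (1.16), inside it. Controls 5 to 7 and T1800 replicates 2 to 4 also carry animal numbers above 3000, so in T1800 both traits fall on the same arrays. Testis is the tissue named in the labels' extraction protocol, but the titles and the labelling protocol give liver. The summed score of 9 hepatocyte markers lay between 33.1 and 55.7 on every array, and Alb averaged 5.57, with the mean of that probe set at percentile 100 of those tested. Of the testis markers, Prm1 ran from -0.33 to 3.15 and Tnp1 from -0.34 to 1.44, and their part in the results was not tested. The enterocyte markers Vil1 (-0.25 to -0.06) and Fabp2 (-0.32 to 0.02) were near 0 on every array.

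The 7 groups were first compared in 1 test per gene, the moderated F test of limma over all probe sets. Apoa4 passed (F = 10.1, adjusted p = 0.00456), the only 1 of the 10 members to do so, where 6.76% of all probe sets passed. A1cf came next (adjusted p = 0.0548), followed by Apom (0.196), Mttp (0.231), Apoa2 (0.434), Apoe (0.494), Apoa1 (0.508), Apoc3 (0.605), Apob (0.759) and Apoa5 (0.973). The F call of Apoa4 was lost without the high-difference arrays and within animals numbered below 3000. In both of these fits T1800 is replicate 1 alone, and the other groups give its spread. Other members, Apoa5 among them, passed in these fits, and their calls are not read for that reason. In the comparisons with Control by limma, 0 members passed at M500, where 0% of all probe sets passed, 0 at M2000 (0.0644%), 0 at P500 (0%), 0 at P2500 (0.254%), 0 at T500 (0.00966%) and 1 at T1800 (1.17%). That 1 was Apoa4, which was lower, as were 0.129% of all probe sets. At an unadjusted p under 0.05, by limma, M2000 had 2 members (24.2% of probe sets), P500 1 (9.23%), P2500 2 (19.9%), T500 4 (29.3%), T1800 1 (10.8%) and M500 0 (4.13%).

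**Figure D1:**
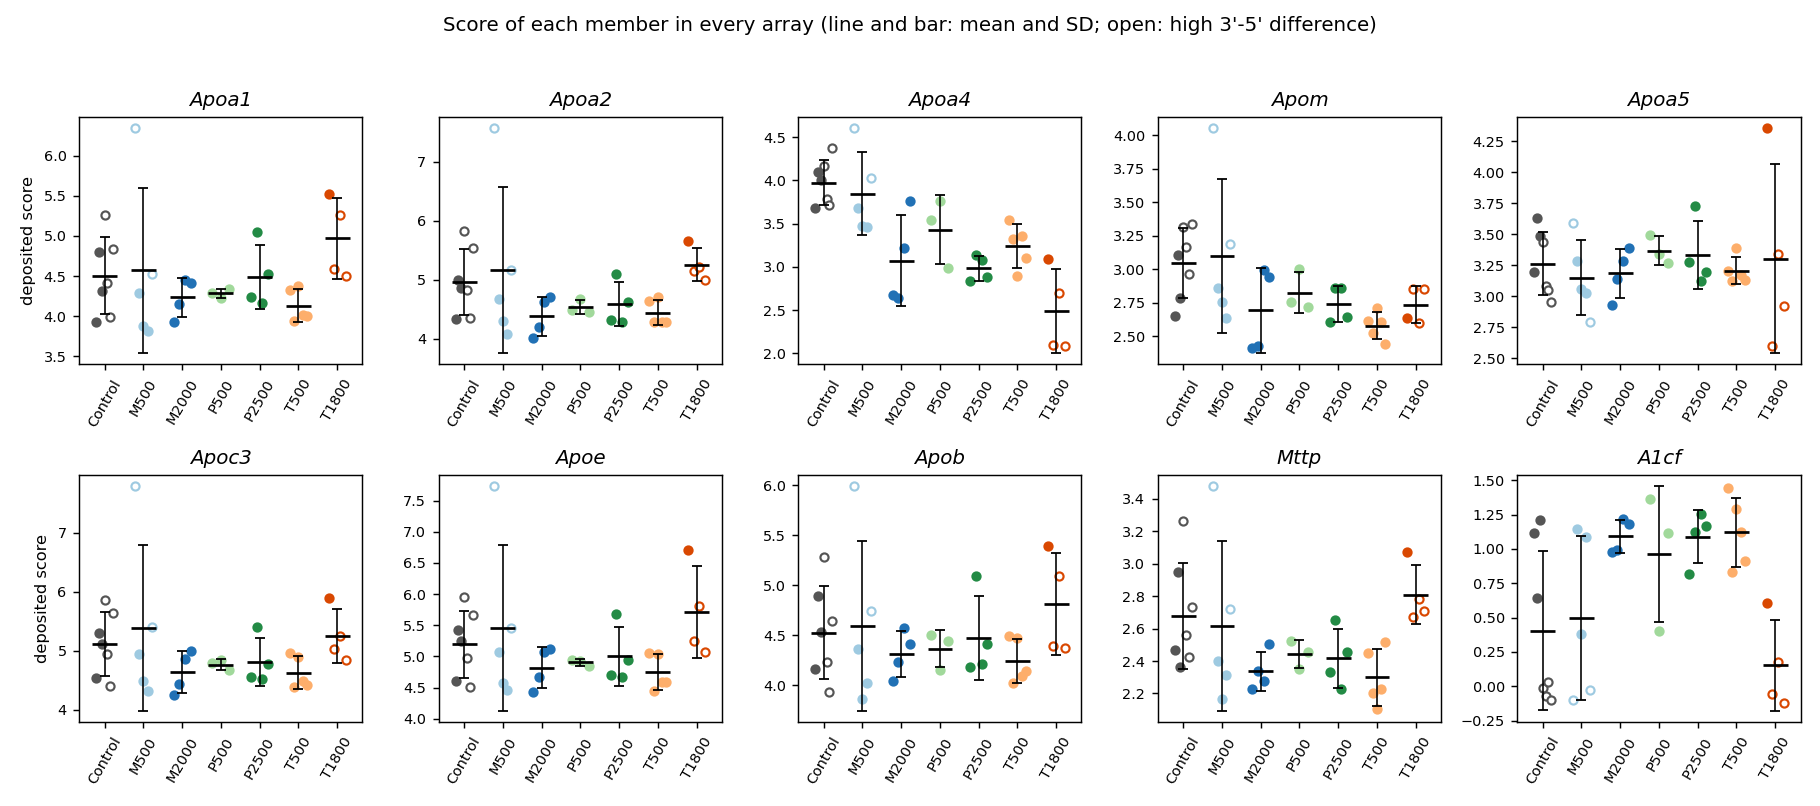
Deposited score (y axis, own range per panel) of each of the 10 members in every array, by group (x axis), with the group mean as a line and the SD as a bar. Open circles are the 9 high-difference arrays. Apoa4 is lower in every array of P2500, T500 and T1800 than in any control, and A1cf is at or below 0.180 in all open circles.

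Apoa4, an exchangeable apolipoprotein of high-density lipoprotein and chylomicrons, had the highest mean in Control and the lowest in T1800 (probe set 1368520_at). The 7 controls ran from 3.68 to 4.38 with a median of 4.00. M500 read 4.60, 3.68, 3.47, 3.46 and 4.02, and M2000 read 2.67, 2.64, 3.21 and 3.76. M500 therefore lay on both sides of the control range, with 3 arrays below it and 1 above it, while 3 of the 4 M2000 arrays were below every control.

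Propiconazole gave Apoa4 scores of 3.54, 3.76 and 2.99 at P500 and of 2.84, 3.13, 3.08 and 2.88 at P2500. Triadimefon gave 3.55, 3.32, 2.89, 3.35 and 3.11 at T500 and 3.09, 2.10, 2.69 and 2.08 at T1800. All arrays of P2500, T500 and T1800 lay below all controls. Such a separation downward was found in 2.07% of probe sets at P2500, 2.2% at T500 and 0.226% at T1800. In P500, 2 of 3 arrays were below every control.

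The Apoa4 difference from Control at T1800 was -1.48 (SE 0.226, 95% interval -1.95 to -1.02), with means of 2.49 ± 0.489 (SD, n = 4) and 3.98 ± 0.260 (n = 7) and an adjusted p of 0.000393 by limma. It did not pass in the other 5 groups. P2500 differed by -0.993 (SE 0.226, adjusted p = 0.0535), M2000 by -0.904 (SE 0.226, adjusted p = 0.0742) and T500 by -0.732 (SE 0.211, adjusted p = 0.0752). P500 differed by -0.544 (SE 0.249, adjusted p = 0.541) and M500 by -0.128 (SE 0.211, adjusted p = 0.9996). Taken for Apoa4 alone, two-sided exact permutation tests over arrays gave p = 0.00303 at T1800 and at P2500 and p = 0.00126 at T500, the smallest values these group sizes allow, 0.00909 at M2000, 0.0333 at P500 and 0.548 at M500. These p-values are not adjusted over genes. In bulk liver, fewer cells that make a transcript and less of it per cell cannot be told apart.

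The order of the Apoa4 means was T1800, P2500, M2000, T500, P500, M500 and Control from low to high. Neighbours in that order did not differ past the threshold, the widest step being that of P2500 over T1800 (0.492, 95% interval -0.0316 to 1.02, adjusted p = 0.182 by limma). The call at T1800 rests on arrays of unequal 3′–5′ difference. Between high-difference arrays alone (3 against 4) the Apoa4 difference was -1.72 (adjusted p = 0.0474), and after adjustment for the 3′–5′ difference it was -1.54 (adjusted p = 0.000116). Without those arrays it was -0.841, with T1800 replicate 1 (Apoa4 score 3.09, mean 3′–5′ difference 1.17) set against 3 controls. Within animals numbered above 3000 it was -1.67 (adjusted p = 0.175) and within those below -0.901 (adjusted p = 0.179), neither passing. Below 3000 the T1800 arm is replicate 1 alone, and the other groups give its spread. The calls at the lower differences turn on single controls. Without Control replicate 1 the adjusted p of Apoa4 by limma was 0.0489 at M2000, 0.0255 at P2500 and 0.0328 at T500, and without Control replicate 3 it was 0.0275, 0.0308 and 0.0355. Those fits called more of all probe sets as well, so the gain is not particular to Apoa4. The counts were 332 and 3013 at M2000 (20 in the main fit), 984 and 1030 at P2500 (79) and 3746 and 4464 at T500 (3).

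**Figure D2:**
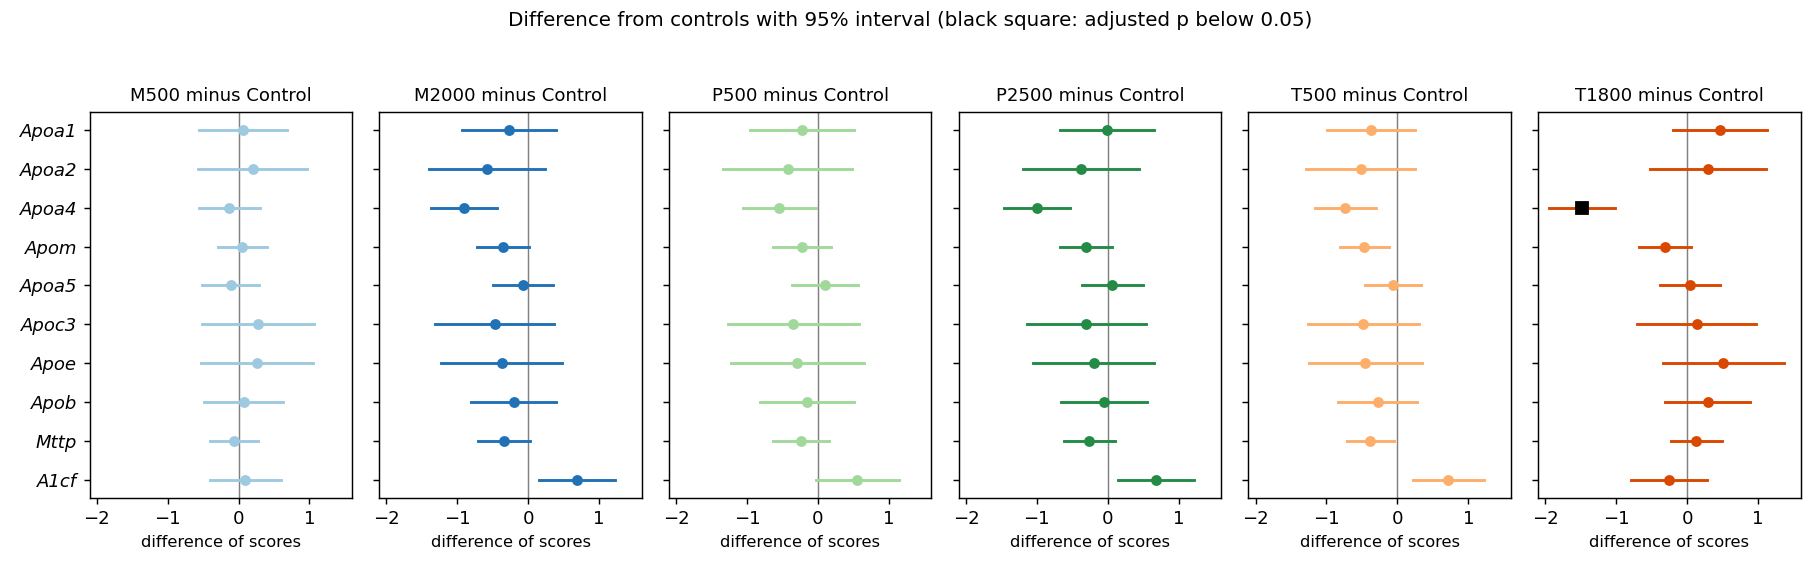
Difference of mean scores from Control (x axis) with its 95% interval from the limma fit for each member (y axis), 1 panel per treated group. The black square is the difference that passed the threshold, Apoa4 at T1800 (-1.48), and the Apoa4 intervals of M2000, P500, P2500 and T500 also lie below 0.

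Apoa4 was then set against its cluster neighbours within each array, which takes out only what moves both genes by the same amount on that array. Among controls, Apoa4 averaged 4.01 on the high-difference arrays and 3.93 on the others, but Apoa5 averaged 3.13 and 3.44. The 3′–5′ difference is thus not taken out against Apoa5. The size of such a difference in 1 group says nothing about the relative amounts of the transcripts, so only its shift from Control is read. Of 18 exact permutation tests (3 neighbours, 6 groups), adjusted together by the Benjamini-Hochberg method, 10 passed, all with Apoa4 the lower. This test was chosen after the scores had been seen, so the count describes those scores. Other gene pairs were not computed, and no share over them stands beside the count.

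Against Apoa5, an activator of plasma triglyceride hydrolysis, Apoa4 was shifted by -0.826 at M2000, -1.06 at P2500, -0.673 at T500 and -1.52 at T1800 (adjusted p = 0.0091 each by the exact permutation test) and by -0.648 at P500 (adjusted p = 0.0167, the exact p being the smallest for 3 against 7). In each of these 5 groups every array was below every control, and how often other gene pairs separate so was not computed. M500 was shifted by -0.0151 (exact permutation test, adjusted p = 0.928).

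Against Apoa1 the shift was -1.95 at T1800, from -0.530 ± 0.301 in Control (SD, n = 7) to -2.48 ± 0.0640 (n = 4), with adjusted p = 0.0091 by the exact permutation test. P2500 (-0.980, exact test, adjusted p = 0.0136) and M2000 (-0.633, exact test, adjusted p = 0.0218) also passed. P500, T500 and M500 did not. Against Apoc3, an inhibitor of plasma triglyceride clearance, T1800 (-1.62, adjusted p = 0.0091) and P2500 (-0.691, adjusted p = 0.0136) passed the exact permutation test and the other 4 groups did not. Without the high-difference arrays, the T1800 shift, then of 1 array, was -2.02 against Apoa1, -1.76 against Apoc3 and -1.76 against Apoa5. Against Apoa5 the shifts of the other 4 groups that had passed became smaller, -0.603 at M2000, -0.425 at P500, -0.838 at P2500 and -0.451 at T500, and the Control mean went from 0.712 to 0.489. With 3 controls left, the exact p could not go below 0.0179 at T500, 0.0286 at M2000 and P2500, 0.1 at P500 and M500 and 0.25 at T1800, so none of the 18 tests could pass after adjustment and these values are a description.

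**Figure D3:**
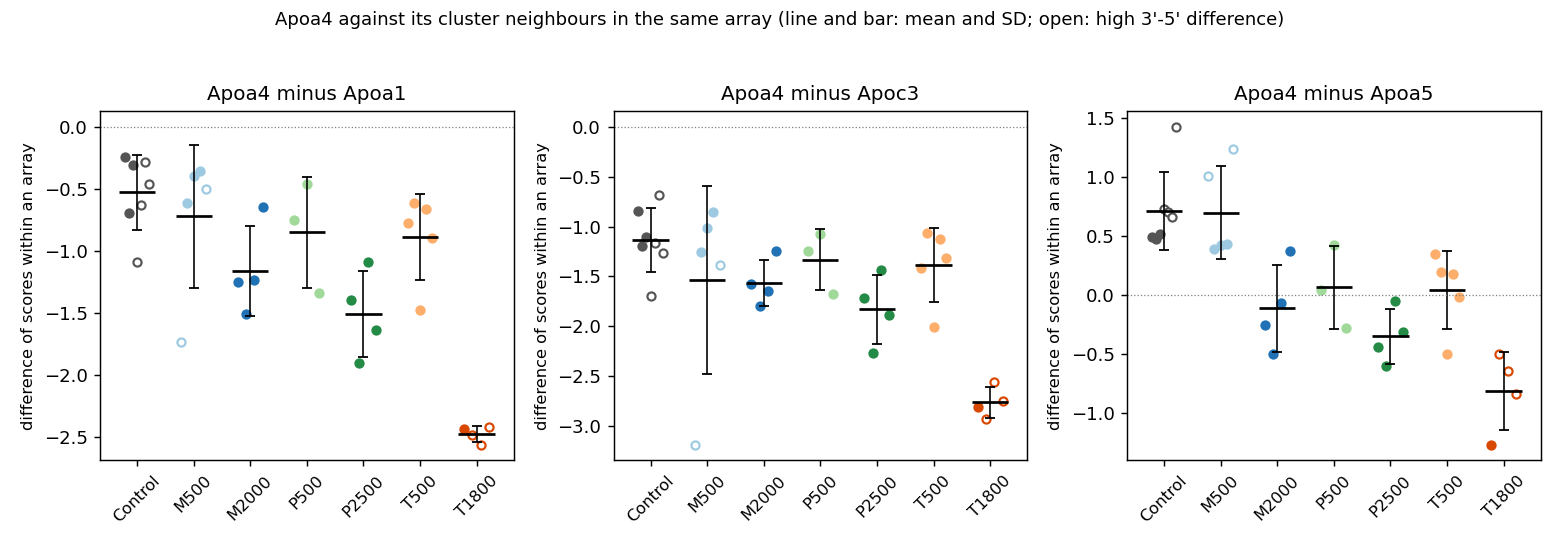
Score of Apoa4 minus that of Apoa1, Apoc3 or Apoa5 in the same array (y axis) by group (x axis), with mean and SD; open circles are high-difference arrays. T1800 has the lowest group mean in all 3 panels, at -2.48 against Apoa1 where Control averaged -0.530.

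The other proteins of high-density lipoprotein did not pass in any comparison with Control. Apoa1 (probe set 1368335_at), the activator of cholesterol esterification by Lcat, averaged 4.51 ± 0.482 in Control (SD, n = 7), 4.57 ± 1.03 in M500 (n = 5), 4.23 ± 0.246 in M2000 (n = 4) and 4.28 ± 0.0550 in P500 (n = 3). The means were 4.49 ± 0.398 in P2500 (n = 4), 4.13 ± 0.202 in T500 (n = 5) and 4.97 ± 0.502 in T1800 (n = 4). T1800 arrays overlapped the control range of 3.93 to 5.26, and the difference of 0.464 had a 95% interval of -0.202 to 1.13 (limma, adjusted p = 0.688).

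Apoa2 (probe set 1369727_at), the second protein of that particle, ran from 4.34 to 5.82 in Control, from 4.08 to 7.56 in M500 and from 5.00 to 5.66 in T1800. Its lowest mean was that of M2000, 4.38 ± 0.333 (SD, n = 4), a difference of -0.579 from Control (95% interval -1.40 to 0.241, adjusted p = 0.360 by limma). The M500 value of 7.56 belongs to replicate 1, the array of widest spread.

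Apom (probe set 1386980_at), which carries sphingosine-1-phosphate on high-density lipoprotein, had means between 2.58 and 2.83 in every treated group but M500. T500 read 2.61, 2.52, 2.71, 2.60 and 2.44 against controls of 2.65 to 3.34, so that 4 of 5 arrays lay below every control. That difference of -0.468 (SE 0.168) had an adjusted p of 0.0947 by limma, which became 0.0441 without Control replicate 1 and 0.0492 without Control replicate 3. Those 2 fits called 3746 and 4464 of all probe sets at T500, against 3 in the main fit. The exact permutation test of Apom alone gave p = 0.00631. At T1800 Apom differed by -0.312 (SE 0.180, adjusted p = 0.584 by limma), but by -0.448 (adjusted p = 0.00323) after quantile normalisation, and by -0.414 (adjusted p = 0.0256) after adjustment for the 3′–5′ difference.

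Of the members that govern triglyceride clearance, Apoa5 (probe set 1369011_at) had the narrowest range of means, from 3.15 in M500 to 3.37 in P500, with 3.26 ± 0.257 in Control (SD, n = 7). Within T1800 it read 4.35, 2.60, 3.34 and 2.92, the widest spread of the 7 groups (SD 0.763). The largest difference from Control was -0.113 at M500 (95% interval -0.509 to 0.283). Apoc3 (probe set 1370009_at) averaged 5.11 ± 0.539 in Control (SD, n = 7), 4.63 ± 0.279 in T500 (n = 5) and 5.25 ± 0.460 in T1800 (n = 4). Its T1800 difference of 0.139 (adjusted p = 0.953 by limma) became -0.223 (adjusted p = 0.000795) after quantile normalisation, so its direction there depends on the scaling.

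Apoe (probe set 1370862_at), the ligand by which remnant particles are taken up, averaged 5.20 ± 0.536 in Control (SD, n = 7), 4.74 ± 0.288 in T500 (n = 5) and 5.71 ± 0.736 in T1800 (n = 4), the lowest and highest group means. The 4 T1800 arrays read 6.71, 5.26, 5.80 and 5.07, of which 1 lay above the control range of 4.51 to 5.96. The difference from Control at T1800 was 0.513 (95% interval -0.337 to 1.36, adjusted p = 0.752 by limma). The other Apoe probe set (1371288_at) was dim, at group means of -0.287 to -0.121, and passed the F test over the 7 groups (adjusted p = 0.0358) with 0 of the comparisons with Control past the threshold. The 2 probe sets thus disagreed in that test.

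Among the genes of very-low-density lipoprotein assembly, Apob (probe set 1388190_at) averaged 4.52 ± 0.465 in Control (SD, n = 7), with the lowest mean in T500 (4.25 ± 0.221, n = 5) and the highest in T1800 (4.81 ± 0.512, n = 4). Its differences from Control lay between -0.280 and 0.289, and the widest of them, at T1800, had a 95% interval of -0.314 to 0.892. The other Apob probe set (1371157_at), at a mean of 0.398, did not pass the F test either (adjusted p = 0.634 by limma).

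Mttp (probe set 1395041_at) averaged 2.68 ± 0.326 in Control (SD, n = 7), 2.34 ± 0.121 in M2000 (n = 4), 2.30 ± 0.176 in T500 (n = 5) and 2.81 ± 0.181 in T1800 (n = 4). In M2000 3 of 4 arrays, and in T500 3 of 5, lay below every control. The T500 difference was -0.380 (SE 0.164, adjusted p = 0.133 by limma) and that of M2000 -0.342 (SE 0.176, adjusted p = 0.226).

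A1cf (probe set 1368784_at), the RNA-binding partner of the Apob mRNA-editing enzyme Apobec1, read lower on every high-difference array than on any other array. The scores were graded, from 0.180 (T1800 replicate 3) to 0.380 (M500 replicate 3), 0.406 (P500 replicate 2) and 0.609 (T1800 replicate 1). The 9 high-difference arrays read -0.0978 to 0.0328 in Control, -0.104 to -0.0245 in M500 and -0.125 to 0.180 in T1800. On the other arrays of these groups A1cf read 0.644 to 1.21 in Control, 0.380 to 1.15 in M500 and 0.609 in T1800 replicate 1. M2000, P500, P2500 and T500, which have no such array, lay between 0.406 and 1.44.

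The difference of A1cf from Control at T500 was 0.716 (SE 0.243, adjusted p = 0.0857 by limma), becoming 0.0340 without Control replicate 1 and 0.0254 without Control replicate 3. M2000 differed by 0.687 (adjusted p = 0.129, or 0.0403 without Control replicate 3) and P2500 by 0.687 (adjusted p = 0.171). Without Control replicate 1 or 3, 3746 and 4464 of all probe sets passed at T500 (3 in the main fit). Without Control replicate 3, 3013 passed at M2000 (20 in the main fit). After adjustment for the 3′–5′ difference, the T500 difference was 0.124 (adjusted p = 0.9996), and without the high-difference arrays it was 0.129 (adjusted p = 0.922). The F test of A1cf over the groups had an adjusted p of 0.991 after the same adjustment.

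**Figure D4:**
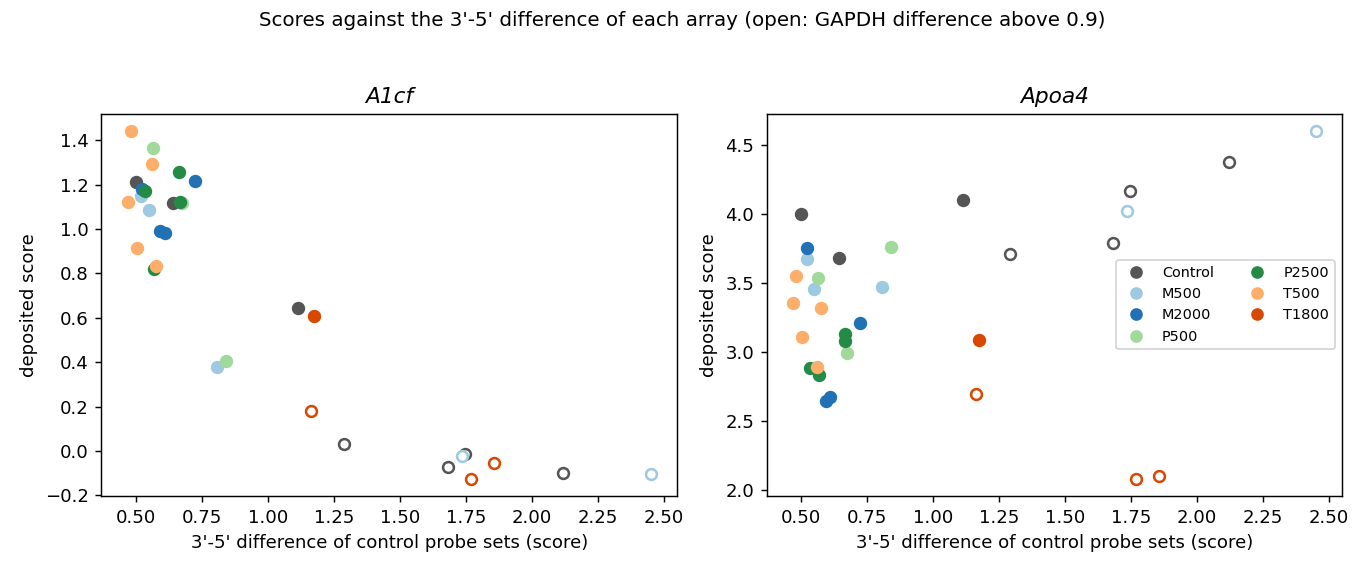
Deposited score (y axis) of A1cf (left) and Apoa4 (right) against the mean 3′–5′ difference of the GAPDH and β-actin control probe sets (x axis), 1 point per array, coloured by group; open circles have a GAPDH difference above 0.9. The open A1cf points lie at or below 0.180 and the filled ones at or above 0.380, while open Apoa4 points run from 2.08 (T1800) to 4.60 (M500).

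Between the levels of 1 compound, 0 members passed for M2000 against M500 (0% of all probe sets) and 0 for P2500 against P500 (0%). The Apoa4 difference of M2000 from M500 was -0.776 (SE 0.242, adjusted p = 0.447 by limma), and P2500 differed from P500 by -0.449 (SE 0.276, adjusted p = 0.99997). For T1800 against T500, 3 members passed, where 24.8% of all probe sets did, 22.3% higher and 2.46% lower. Apoa4 was lower (-0.753, SE 0.242, adjusted p = 0.0278), A1cf was lower (-0.968, SE 0.279, adjusted p = 0.0177) and Mttp was higher (0.508, SE 0.188, adjusted p = 0.0484).

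Those 3 calls were not firm. After adjustment for the 3′–5′ difference the limma difference was -1.03 for Apoa4 (adjusted p = 0.0898), -0.231 for A1cf (adjusted p = 0.627) and 0.149 for Mttp (adjusted p = 0.766), and 0 members passed. With the number series as a block, 0 passed as well. The Mttp call was lost on leaving out any 1 of the 9 arrays (adjusted p = 0.0515 to 0.118). The Apoa4 call was lost without T500 replicate 1, 2 or 4 or T1800 replicate 2 or 4 (adjusted p = 0.0510 to 0.0984), and the A1cf call without T1800 replicate 4 (adjusted p = 0.0536). The other 7 members were higher at T1800 by 0.0986 (Apoa5) to 0.966 (Apoe) without passing. Without the high-difference arrays, the Apoa4 difference was -0.157, but T1800 was then replicate 1 alone, which had the second widest spread of all arrays (SD 0.919).

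The 3 compounds can be compared at the 1 level they share, 500 ppm. Myclobutanil carries a nitrile, propiconazole a cyclic ketal and triadimefon a ketone beside the triazole ring. In each of the 3 pairs 0 of 10 members passed, where 0% of all probe sets did. Apoa4 was higher by 0.604 in M500 than in T500 (95% interval 0.136 to 1.07, adjusted p = 0.237 by limma), by 0.416 in M500 than in P500 (-0.125 to 0.957, adjusted p = 0.855) and by 0.188 in P500 than in T500 (-0.353 to 0.729, adjusted p = 0.9997). These intervals include differences as wide as some of those from Control, so the data do not show that the compounds act alike. The high levels differ in ppm, so beyond the order of the means given above they are only set side by side. Their Apoa4 means were 3.07 ± 0.527 in M2000 (SD, n = 4), 2.98 ± 0.144 in P2500 (n = 4) and 2.49 ± 0.489 in T1800 (n = 4).

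The median difference of the 10 members from Control was 0.0679 at M500, -0.348 at M2000, -0.229 at P500, -0.230 at P2500, -0.417 at T500 and 0.134 at T1800. Over all probe sets the medians were -0.00329, -0.0364, -0.0262, -0.0334, -0.0438 and 0.0185, and over the 10% of probe sets with the highest mean -0.00908, -0.234, -0.132, -0.131, -0.230 and 0.122. The members are nearly all bright, 9 of the 10 having a mean above percentile 97, while the 9 hepatocyte markers had median differences from Control of 0.125, -0.402, -0.308, -0.230, -0.438 and 0.261 in the same order of groups, with 0 of the 9 past the threshold in each. The part of this in the members' medians was not tested.

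With group means removed, the 45 pairs of members were correlated over 32 arrays, with values permuted within groups and p-values adjusted over the pairs. Apoa2 and Apoc3 had r = 0.991 and rho = 0.979 (permutation test, adjusted p = 3.46e-05 for both), and r = 0.976 without the 2 arrays farthest from the median of Apoa2. Among the 28 pairs without Apoa4 or A1cf the median r was 0.863, and 27 passed. The 9 pairs with Apoa4 had a median r of 0.696 and 8 passed, A1cf being the exception (r = -0.141, rho = -0.144, permutation test, adjusted p = 0.517 and 0.542).

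A1cf itself passed with 1 member, Apom (r = -0.553, adjusted p = 0.00995, and rho = -0.467, adjusted p = 0.0260, permutation test), and that pair had r = -0.0246 in the 23 other arrays. There, 27 of the 45 pairs passed. Apoa1 and Apoa4 had r = 0.715 and rho = 0.695 over all arrays (permutation test, adjusted p = 0.000118 and 0.000238), and r = 0.383 in those 23 arrays (permutation test, adjusted p = 0.0875). The arrays also differ in their overall spread of scores, which bright genes share, and pairs of other bright genes were not computed, so these counts are not particular to the members.

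Genes with a pattern like that of Apoa4 were ranked by Pearson's r over the 32 arrays, as a description, among 14216 genes. The 5 most alike were Pklr (pyruvate kinase of liver, r = 0.915), Scd (the Δ9 fatty acid desaturase, 0.846), Tkfc (triokinase, 0.828), Hal (histidine ammonia-lyase, 0.826) and Synrg (0.794). Their differences from Control at T1800 were -0.841 for Pklr, -1.75 for Scd, -0.471 for Tkfc, -0.592 for Hal and -0.300 for Synrg, which describe the choice, since they were picked for likeness to Apoa4 on these arrays. After the 3′–5′ difference was regressed out, Ak4 (adenylate kinase, 0.811) took the fifth place. Of the members, Apom ranked highest at 41 (r = 0.666), then Apoc3 at 318 (r = 0.489), while Apoa1 ranked 3813 (r = 0.261), Apoa5 4393 (r = 0.240) and A1cf 12734 (r = -0.166).

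The wider lipoprotein pathway was read from 62 genes in 6 lists. In the comparisons with Control, by limma, 0 of the 62 passed at M500, M2000, P500, P2500 and T500, and 1 was higher and 0 lower at T1800, where 1.17% of all probe sets passed, so the count is near the background. That gene was Sort1, a sorting receptor for Apob, which was dim, at 0.487 in T1800 against 0.306 in Control (difference 0.181, SE 0.0299, adjusted p = 0.000950 by limma). The median difference of the 62 genes was 0.0983 at T1800, -0.242 at T500 and -0.228 at M2000.

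Of the other apolipoproteins (8 measured), Apoc1, Apoc2 and Apoc4 differed from Control at T500 by -0.58, -0.63 and -0.57 (adjusted p = 0.295, 0.170 and 0.137 by limma), and 0 of the 8 passed in any group. Among 13 genes of assembly and secretion, Tm6sf2, which helps to lipidate Apob particles, had the smallest p at M2000 (-0.315, adjusted p = 0.0972 by limma) and T500 (-0.307, adjusted p = 0.0759). Of 6 genes of Apob RNA editing, 0 passed, and the smallest p at M2000, P500, P2500 and T500 was that of Rbm47, an RNA-binding cofactor of editing (-0.503, -0.375, -0.396 and -0.430). Apobec1, the enzyme, was dim, at 0.39 in Control, and its differences lay between -0.04 and 0.11.

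Among 9 genes of plasma remodelling, Angptl4, an inhibitor of lipoprotein lipase, had the smallest p in all groups but T1800. Its differences were -0.516 at M500, -0.946 at M2000 (adjusted p = 0.0704 by limma), -0.825 at P500, -0.680 at P2500 and -0.586 at T500, from 2.75 in Control. At T1800 it differed by -0.69 (adjusted p = 0.167), and Lpl, the lipase itself, had the smallest p of its list (0.528, adjusted p = 0.114). Among 11 receptors and efflux transporters, Lrpap1, a chaperone of lipoprotein receptors, came closest (-0.291 at T500, adjusted p = 0.0732 by limma), and 0 passed.

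Of 15 transcription factors of apolipoprotein genes, 0 passed in the comparisons with Control. By limma the smallest p was that of Nr2f1 at T500 (-0.149, adjusted p = 0.0956) and Cebpa at M2000 (-0.537, adjusted p = 0.131). It was that of Srebf1 at P2500 (-0.596), Srebf2 at T1800 (0.212) and Nr0b2 at M500 (0.547) and P500 (0.706). Hnf4a, the nuclear receptor that drives many of the members, differed by -0.62 at T500 (adjusted p = 0.135 by limma) and by 0.37 at T1800 (adjusted p = 0.736). Creb3l3, a bZIP factor of the hepatocyte with targets among apolipoprotein genes, differed by -0.31 at T500 (adjusted p = 0.260 by limma) and by 0.16 at T1800 (adjusted p = 0.865). The part of Hnf4a and Creb3l3 in the scores of the members was not tested. Between T1800 and T500, 20 of the 62 genes were higher and 0 lower, where 22.3% of all probe sets were higher. In that comparison 6 of 8 Kupffer cell and macrophage markers were higher as well. So were 3 of 8 stellate cell, 2 of 5 endothelial cell, 1 of 4 cholangiocyte and 1 of 9 hepatocyte markers, with 0 lower. Against Control 0 of the 8 Kupffer cell and macrophage markers passed at T1800, at a median difference of 0.353. Markers of other cell types did pass there, 1 of 4 cholangiocyte markers (Epcam, 0.720, adjusted p = 0.000791 by limma) and 1 of 8 stellate cell markers (Col1a2, 0.313, adjusted p = 0.0410). The summed stellate score was 6.21 to 7.11 in T1800 against 4.57 to 5.55 in Control, and the summed cholangiocyte score 0.610 to 1.24 against 0.116 to 0.400. The cholangiocyte sum mostly repeats Epcam. Krt19, Krt7 and Spp1 averaged -0.0866, -0.115 and 0.0520 over all arrays, and the median difference of that list at T1800 was 0.0243. The part of these markers in the Apoa4 result was not tested.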

How the data were processed

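Liver RNA of 32 rats was profiled on 3′ expression arrays. The authors deposited a score for each probe set on each array. Its summary method, normalisation, scale, log base and centring were not given in the sources used here. From the deposited scores, limma 3.58.1 in R 4.3.3 fitted all 7 groups in 1 model to 31042 probe sets (57 Affymetrix control probe sets left out of 31099) at default settings, with 26.99 degrees of freedom (residual plus prior). Tests of the 12 comparisons were two-sided, with Benjamini-Hochberg adjustment over all probe sets of a comparison and an adjusted p threshold of 0.05. Intervals are 95% intervals of that fit, and the number of arrays limits their precision. Of the tested probe sets, the platform annotation gave 1 symbol to 20826, several to 436 and none to 9780. A gene is represented by its probe set of highest mean. Exact permutation tests and correlations (100000 permutations) used Python 3.11.15, numpy 2.4.6, scipy 1.17.1 and pandas 2.3.3, and scores were read with version 1.17.8 of data.table. The fit was tested on simulated data.

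The members and gene lists were chosen with earlier results of these data known. The naming rule was all members, every gene of the 6 pathway lists past the threshold against Control and otherwise the gene of smallest p per list, and the 5 genes most correlated with Apoa4. Apoc1, Apoc2, Apoc4, Apobec1, Hnf4a and Creb3l3 were named outside that rule, after their values were seen. Some genes of the lists are not reported here. The marker lists covered hepatocyte, testis, macrophage and enterocyte genes and 4 further cell types. Alternatives were other scaling, filters, blocks, covariates, weights and sets of arrays. Arrays of a group were compared in pairs, none were identical, and their correlations over probe sets ran from 0.933 to 0.996. Promoter windows came from RefSeq (GRCr8).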

Additional observations from a re-analysis of the deposited data

Results flagged for a closer look

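In 60 sets of 4 to 7 arrays (a member in a group), the array farthest from the rest was compared with its nearest neighbour, relative to the range of the set. Of these, 1 stood apart, where chance gives about 1 in 20. Apoa1 in M500 replicate 1 had a score of 6.34, and the next highest M500 array had 4.53. That array also had the highest maximum (9.01), the widest spread (SD 1.02) and the largest 3′–5′ difference (2.45) of the 32 arrays, and the part of these in the Apoa1 score was not tested.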

How the results depend on the processing

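Scale and log base of the score are unknown, so a size cannot be turned into a fold. Of the 24 alternatives for Apoa4 at T1800 against Control, the difference was below 0 in all 24 (-1.72 to -0.841) and passed in 21. It did not pass within animals numbered below 3000 (-0.901), above 3000 (-1.67) or without the high-difference arrays (-0.841). The number of members past the threshold at T1800 was 1 in the main fit, 3 after quantile normalisation, 0 within animals above 3000 and 2 after adjustment for the 3′–5′ difference. Without the high-difference arrays T1800 is 1 array assumed to vary like the other groups, so no count is read there. At P2500 it was 1 under quantile normalisation, without the dimmest 40% of probe sets, in the fit of only 2 groups and with trend and robust settings. Array weights gave 5 at M2000, 2 at P500, 3 at P2500, 4 at T500 and 5 for T1800 against T500, while calling up to 14004 of all probe sets in a comparison. Leaving out 1 array gave 0 to 2 at M2000, 0 to 1 at P2500, 0 to 3 at T500 and 0 to 2 for T1800 against T500. That comparison (3 in the main fit) also gave 0 with the number series as a block, 0 after adjustment for the 3′–5′ difference and 5 in the fit of only 2 groups. Over the 7 groups the F test passed 1 member, and 3 after quantile normalisation, 2 with trend and robust settings, 4 with array weights and 1 to 2 with 1 array left out. Apoa4 did not pass the F test without the high-difference arrays or within animals below 3000, where T1800 is replicate 1 alone. Other members, Apoa5 among them, did pass in those fits, and these calls are not read. Without the high-difference arrays, T1800 replicate 1 exceeded the control mean by 1.18 for Apoa1, 0.929 for Apoa2, 0.915 for Apoa5 and 1.62 for Apoe. Apob (0.867), Apoc3 (0.914) and Mttp (0.476) were higher there too, and Apom and A1cf lower. After quantile normalisation Apoc3 turned from higher to lower, at -0.223 for T1800 against Control and -0.236 for T1800 against T500, both past the threshold. The cause of these changes was not tested. The count of all probe sets past the threshold ran from 13 to 5495 at T1800 (main 362), 8 to 9246 at P2500 (79), 0 to 12216 at M2000 (20), 0 to 11982 at T500 (3), 0 to 2283 at M500 (0), 0 to 4880 at P500 (0) and 88 to 14004 for T1800 against T500 (7690).

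Deviations of same-numbered arrays of different groups had a median r of -0.0101 (76 pairs, r from -0.666 to 0.596, 24 above 0.1). The median shows no common pairing by replicate number, but with so wide a range it cannot exclude pairing of some arrays. Pairing by animal number or in another way was not tested. With the replicate number as a replicate block, Apoa4 at T1800 differed by -1.45 (adjusted p = 0.00342 by limma) and the counts of members past the threshold stayed 1 there and 3 for T1800 against T500.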
